A study of Mus musculus with 34 samples.

Results

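Globin genes and the erythroid transcription factors Gata1 and Klf1 were followed in mouse embryonic stem (ES) cells lacking Mta proteins, subunits of the Nucleosome Remodelling and Deacetylation (NuRD) complex. There were 7 members among the 48709 genes listed for the triple-mutant libraries and the 22018 listed for the single-mutant libraries. They were Hbb-y, Hbb-bh1, Hba-x, Hba-a1, Hba-a2, Gata1 and Klf1. The set was selected because measured values of Hbb-y were high in Mta123KO libraries, so the differences between Mta123KO and Control and between single mutants and parents are given for these genes as a description, with no test.

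All 34 libraries came from 129/Ola ES cells on gelatin. In the triple-mutant experiment, 4 Control and 4 Mta123KO libraries were labelled 2iL, for medium with inhibitors of Mek and Gsk3 plus LIF, and 4 of each were labelled 48h, for 48 hours in N2B27 without inhibitors or LIF. Each group of 4 holds 2 libraries from each of 2 lines, so libraries within a line are not shown to be independent cultures and the p-values measure the spread between libraries, which may be technical. Control was derived alongside the parent of Mta123KO and carries 1 inactive Mta1 allele, with Mta2 intact and floxed Mta3. Mta123KO lacks Mta1, Mta2 and Mta3 (exons of Mta1 and Mta3 removed by Cre, Mta2 deleted on one allele and replaced by a puromycin cassette on the other). In the single-mutant experiment, 3 libraries each of Mta1_del_del, Mta2_KO and Mta3_del_del cells, all in 2iL, were set beside 3 each of Mta1_flox_flox, Mta2_WT and Mta3_flox_flox cells, and Mta2_KO is a single primary line. Values are CPM, the reads of a gene scaled to library size. Mta2 was 4.75 to 10.4 CPM in Mta123KO and 110 to 203 in Control, and Mta3 was 9.48 to 23.8 against 36.6 to 74.7. In their own single mutants, Mta2 was 9.21 to 11.7 CPM against 226 to 249 and Mta3 was 9.53 to 13.0 CPM against 61.5 to 71.1. Mta1, whose Cre allele loses a single exon and can still be transcribed, was 15.5 to 30.0 CPM in Mta123KO against 23.6 to 48.3 in Control, and 39.2 to 48.0 CPM in Mta1_del_del against 69.4 to 103 in the parent. Total counts were 37855790 to 57602285 per library in the triple-mutant experiment and 13105820 to 40613585 in the single-mutant experiment.

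The culture of the triple-mutant libraries is in doubt, because the deposited file of each of the 16 libraries is named for the opposite culture to its sample label, and the ES-cell markers go against the labels too. Nanog, a core pluripotency factor, was at 48.2 to 82.9 CPM in Control labelled 2iL and at 866 to 1017 CPM in Control labelled 48h. Klf4, a naive pluripotency factor, was at 2.91 to 7.78 against 117 to 148 CPM. The 7 ES-cell markers together summed to 697.5 to 734 CPM in Control labelled 2iL and to 2647 to 2831 CPM in Control labelled 48h, while the single-mutant libraries, all in 2iL, summed to 2998 to 4483 CPM. Mta123KO libraries had the same order, at 592 to 786.5 CPM labelled 2iL and 1625 to 2331 CPM labelled 48h. Cultures are therefore written as labelled throughout. Exchanging the labels would exchange the pair of genotype comparisons and turn the sign of each culture comparison and of the interaction, while leaving the size of every value.

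**Figure D1:**
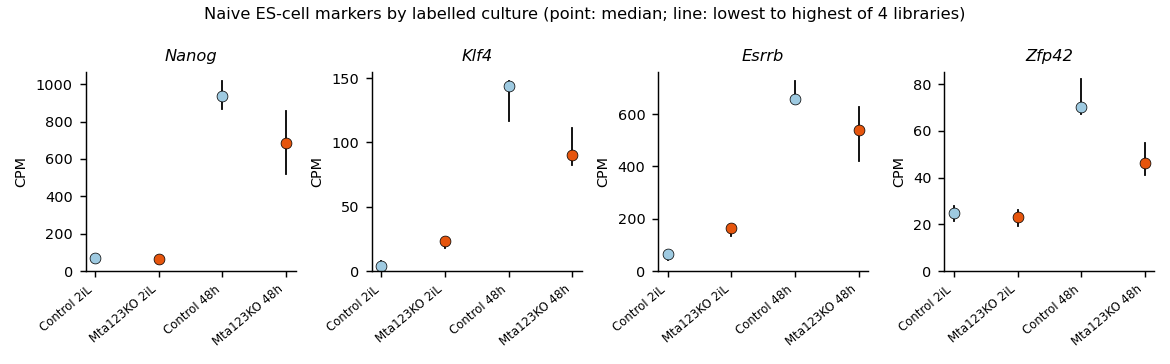
CPM of 4 ES-cell markers in the groups of the triple-mutant experiment, with the median as a point and the lowest to highest library as a line. Nanog, Klf4, Esrrb and Zfp42 all had higher medians under the 48h label, in Control and in Mta123KO.

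Haemoglobin is built from alpha-type and beta-type globin chains, each encoded by a gene cluster with embryonic and adult members. In the mouse, Hbb-y and Hbb-bh1 encode the beta-type chains and Hba-x the zeta chain of primitive red cells in the yolk sac, and Hba-a1 and Hba-a2 encode the alpha chains that are used from embryonic into adult life. Gata1 is the zinc-finger factor that drives erythroid differentiation, and Klf1 is a zinc-finger factor that binds CACC boxes of globin and other erythroid genes. NuRD is a chromatin remodeller and histone deacetylase, and in erythroid cells it is known as a repressor of embryonic and fetal globin genes.

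The beta-type members lie on chromosome 7 and the alpha-type members on chromosome 11 of GRCm38. The annotation places Hbb-y at chr7:103851749-103853216, minus strand, and Hbb-bh1 at chr7:103841637-103843164, minus strand. Between them it lists the pseudogene Hbb-bh0, whose end lies 1600 bases downstream of Hbb-y. Hba-x is at chr11:32276400-32278116, Hba-a1 at chr11:32283511-32284465 and Hba-a2 at chr11:32296489-32297298, all on the plus strand. Gata1 is at chrX:7959260-7978071, minus strand, and Klf1 at chr8:84901928-84905291, plus strand. No member overlaps another annotated gene.

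The 250 bases upstream of the RefSeq start of Hbb-y, the member that stood out, are shown with those of Hba-x and Hba-a1, the embryonic and the adult alpha-type genes that did not stand out in the same way. Sequences are from RefSeq on GRCm38.p6, written 5′ to 3′ on the gene's strand. Hbb-y is chr7:103853208-103853457 (minus strand), Hba-x chr11:32276350-32276599 (plus strand) and Hba-a1 chr11:32283422-32283671 (plus strand). Capitals mark every match, on either strand, to the 6 motifs searched. The GATA motifs were AGATAA and also TGATAA. The CACC boxes were CCACACCC and also CCACCC, neither of which contains the other. The promoter boxes were CCAAT and also TATAAA.
Hbb-y: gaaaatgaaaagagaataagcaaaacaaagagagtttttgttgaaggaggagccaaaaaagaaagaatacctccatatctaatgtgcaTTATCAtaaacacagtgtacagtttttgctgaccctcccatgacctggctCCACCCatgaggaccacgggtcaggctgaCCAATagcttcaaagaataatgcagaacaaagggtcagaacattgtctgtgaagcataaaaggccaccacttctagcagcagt
Hba-x: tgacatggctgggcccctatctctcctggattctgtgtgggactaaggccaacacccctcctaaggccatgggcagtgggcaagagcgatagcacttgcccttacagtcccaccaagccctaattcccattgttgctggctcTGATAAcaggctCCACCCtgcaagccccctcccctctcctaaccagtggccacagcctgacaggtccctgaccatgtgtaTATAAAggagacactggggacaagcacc
Hba-a1: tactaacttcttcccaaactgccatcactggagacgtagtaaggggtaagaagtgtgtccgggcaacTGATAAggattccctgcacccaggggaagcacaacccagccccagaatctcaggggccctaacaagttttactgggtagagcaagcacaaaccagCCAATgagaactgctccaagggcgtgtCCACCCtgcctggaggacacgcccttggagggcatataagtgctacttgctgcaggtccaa
All 3 sequences held 1 TGATAA and 1 CCACCC. In Hbb-y the TGATAA match was on the reverse strand, 162 to 157 bases before the start, and the CCACCC match was 112 to 107 bases before it. In Hba-x they lay 108 to 103 and 96 to 91 bases before the start, and in Hba-a1 183 to 178 and 61 to 56 bases. CCAAT was found in Hbb-y (83 to 79 bases before the start) and Hba-a1 (88 to 84), and TATAAA in Hba-x only (28 to 23), among these 3. Over all 32851 promoter windows of that length in the table, 7.94% held TGATAA, 9.99% AGATAA, 28.1% CCACCC, 3.2% CCACACCC, 33.8% CCAAT and 12.4% TATAAA. The window of Hba-a2 was the same as that of Hba-a1 over all 247 bases compared, shifted by 3 bases. In the Gata1 window 1 CCACCC match was found, 53 to 48 bases before the start, and the Klf1 window held TGATAA on the reverse strand (80 to 75) and CCAAT (64 to 60). The table matched 6 of the 7 members, with no entry for Hbb-bh1. A match is a description of these letters only.

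Hbb-y was high in every Mta123KO library and close to 0 in every Control library. Among libraries labelled 2iL, Hbb-y had 291, 325, 241 and 337 counts in Mta123KO and 4, 2, 1 and 1 in Control. As CPM these were 6.17, 7.36, 5.89 and 7.31 in Mta123KO against 0.0796, 0.0411, 0.0205 and 0.0221 in Control, giving means of 6.68 ± 0.76 and 0.0408 ± 0.0275 (SD, n = 4 libraries of 2 lines each). The groups were far from overlapping, and the 2 Mta123KO lines had means of 6.76 CPM in line 1 and 6.60 in line 2. Among libraries labelled 48h, Hbb-y had 109, 175, 99 and 127 counts in Mta123KO and 0, 1, 0 and 0 in Control. These were 2.52, 3.84, 2.20 and 2.33 CPM in Mta123KO (mean 2.72 ± 0.757) against 0, 0.0263, 0 and 0, again without overlap, and with line means of 3.18 and 2.26 CPM in Mta123KO.

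**Figure D2:**
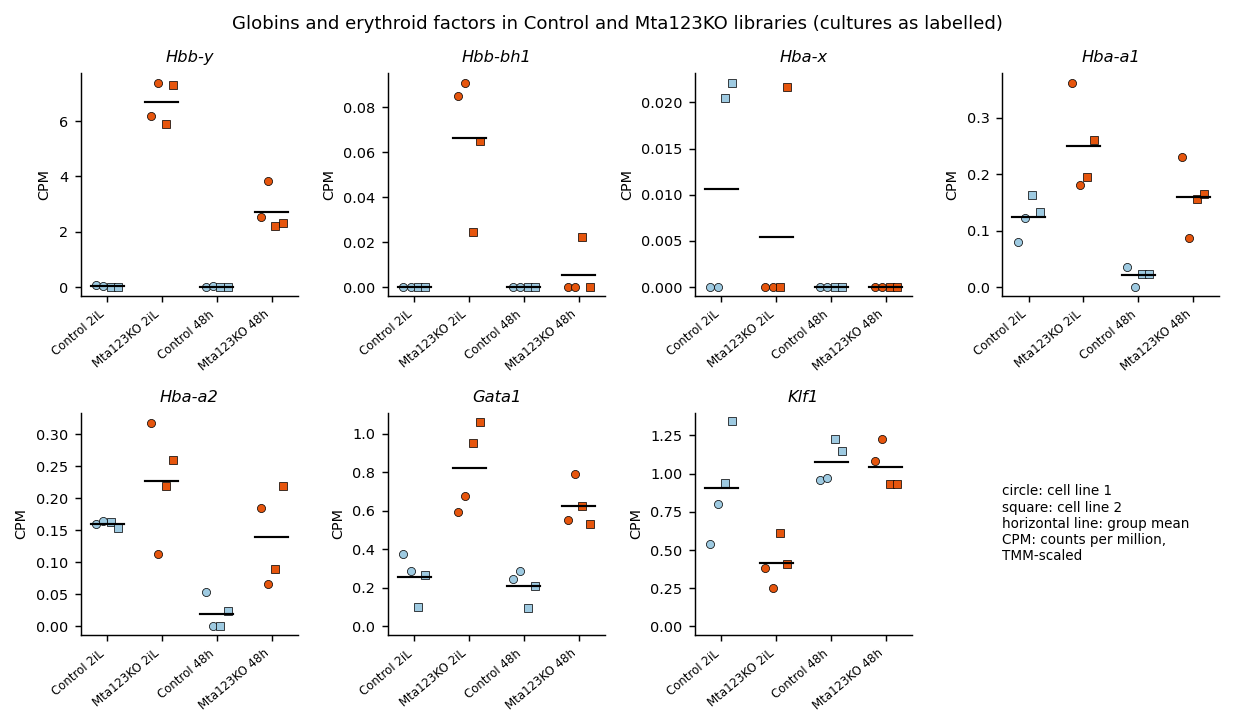
CPM of each of the 7 members in each library of the triple-mutant experiment, with line 1 as circles, line 2 as squares and the group mean as a horizontal line. The vertical axis differs between panels: Hbb-y reached 5.89 to 7.36 CPM in Mta123KO labelled 2iL, while the other globins stayed at or under 0.361 CPM in every library.

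The Hbb-y ratio of Mta123KO to Control, from summed counts and scaled library sizes, was 162 labelled 2iL (exact 95% counting interval 81.8 to 375; 1194 against 8 counts). Labelled 48h it was 483 (86.3 to 19110; 510 against 1 count), an interval that covers counting error only and is wide because Control held 1 count. On the log2 scale of the edgeR quasi-likelihood fit over all genes, the differences were 7.25 (SE 0.29) and 8.36 (SE 0.53), and they stayed between 7.01 and 7.80 and between 8.0 and 9.80 under the 10 other settings of each. A gene is called below if its p, adjusted by Benjamini-Hochberg, is below 0.05 and its level differs by over 1 on the log2 scale. In Mta123KO labelled 2iL, 50% of the 22973 genes past the filter had a lower mean CPM than Hbb-y. Hbb-y reached the middle of the expressed range there, while in Control labelled 2iL 1.55% of genes were lower.

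The other beta-type embryonic gene, Hbb-bh1, was at the edge of detection. It had 4, 4, 1 and 3 counts in the Mta123KO libraries labelled 2iL, or 0.0848, 0.0906, 0.0244 and 0.0650 CPM, and 0 in all 8 Control libraries. The summed 12 counts were at least 4.33-fold above what a floor of 3 counts over the 4 Control libraries allows. Labelled 48h, 1 Mta123KO library had 1 count, so no fold can be given. The pseudogene Hbb-bh0 had 10 counts over the Mta123KO libraries labelled 2iL, at least 1 in each, and 2 labelled 48h, against 0 in Control. The adult beta-type genes were not detectable beyond a few reads, with 3 counts of Hbb-bs and 1 of Hbb-bt in Mta123KO labelled 2iL and 0 in every other group of this experiment.

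The embryonic alpha-type gene Hba-x did not accompany Hbb-y. It had 0, 0, 1 and 1 counts in Control labelled 2iL and 0, 0, 0 and 1 in Mta123KO labelled 2iL, and 0 in all 8 libraries labelled 48h, so both genotypes were at or under the floor of 3 counts. Hba-x also stayed at 0 to 0.0221 CPM. Embryonic and adult type therefore did not divide the globins: one embryonic gene was high, one was at a few reads and one was at the floor.

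The alpha-chain genes were low and differed less. Hba-a1 was at 0.361, 0.181, 0.196 and 0.260 CPM in Mta123KO labelled 2iL and at 0.0796, 0.123, 0.164 and 0.132 CPM in Control, a ratio of 2.03 (1.21 to 3.48; 45 against 24 counts). The groups did not overlap, with the lowest Mta123KO library 0.181 just above the highest Control library. Labelled 48h, Hba-a1 was at 0.231, 0.0878, 0.156 and 0.165 CPM in Mta123KO and at 0.0355, 0, 0.0241 and 0.0235 CPM in Control, a ratio of 7.10 (2.50 to 27.7; 30 against 4 counts). Hba-a2 was at 0.318, 0.113, 0.220 and 0.260 CPM in Mta123KO and at 0.159, 0.164, 0.164 and 0.154 CPM in Control labelled 2iL, with overlap and a ratio of 1.43 (0.876 to 2.36). Labelled 48h it was at 0.185, 0.0658, 0.0890 and 0.220 CPM in Mta123KO and at 0.0533, 0, 0 and 0.0235 CPM in Control, with no overlap and a ratio of 6.39 (2.23 to 25.1; 27 against 4 counts). Neither gene reached the filter on low counts, so neither had a fitted value.

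Hba-a1 and Hba-a2 cannot be counted apart with confidence. Of the windows of 50 bases in the longest coding transcript of Hba-a2, 86.9% occur unchanged in that of Hba-a1, and 67.5% of those of Hba-a1 occur in that of Hba-a2. How reads with several alignments were handled is not given in the sources used here, and such reads may have been split, dropped or given to one gene. Hbb-y shares none of its 584 windows with Hbb-bh1, Hbb-bs or Hbb-bt. Other copies were not searched.

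**Figure D3:**
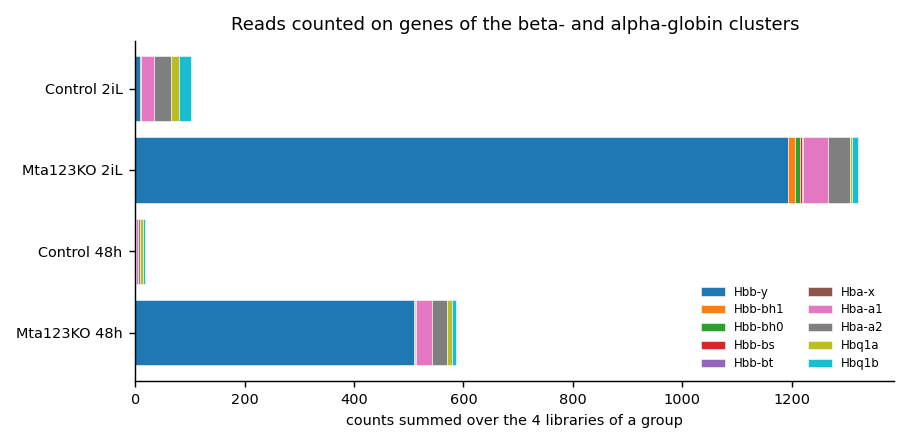
Counts on 10 annotated genes and pseudogenes of the beta- and alpha-globin clusters, summed over the 4 libraries of each group and stacked by gene (Hbb-bh2, with 1 count in all, and Hbb-bh3, with 0, are left out). Hbb-y fills most of the bar in both Mta123KO groups and little of it in both Control groups.

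As a share of counts on the 12 globin genes and pseudogenes of both clusters, Hbb-y made up 90.3% in Mta123KO labelled 2iL (95% Wilson interval 88.6 to 91.8; 1194 of 1322 counts) and 86.7% labelled 48h (83.8 to 89.2; 510 of 588). In Control it made up 7.84% labelled 2iL (4.03 to 14.7; 8 of 102) and 5.56% labelled 48h (0.988 to 25.8; 1 of 18). Alpha-chain genes held 45 and 41 counts for Hba-a1 and Hba-a2 in Mta123KO labelled 2iL, and Hbb-y was thus without an alpha-type partner at a like level.

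Gata1 was low in all libraries and higher in Mta123KO. Labelled 2iL, its 4 Mta123KO libraries were at 0.594, 0.679, 0.953 and 1.06 CPM and its 4 Control libraries at 0.378, 0.287, 0.102 and 0.265 CPM. Labelled 48h, they were at 0.554, 0.790, 0.623 and 0.531 CPM against 0.249, 0.289, 0.0964 and 0.211 CPM. Every Mta123KO library was above every Control library under both labels. The share of all genes whose groups separate like this is not given here. The log2 differences were 1.66 (SE 0.37) and 1.56 (SE 0.33), ratios of 3.16 (2.28 to 4.45) and 2.92 (2.01 to 4.32) from summed counts. Under the 10 other settings of each, the log2 difference ran from 1.32 to 2.03 labelled 2iL and from 1.33 to 1.71 labelled 48h. Gata1 passed both thresholds under 9 of the 10 for each label.

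Klf1 went the other way labelled 2iL. Its Mta123KO libraries there were at 0.382, 0.249, 0.611 and 0.412 CPM and its Control libraries at 0.538, 0.800, 0.942 and 1.34 CPM, overlapping in 1 library on each side. The log2 difference was -1.13 (SE 0.35), and it was -1.0 without replicate 1_2 and -0.89 without replicate 2_2. Labelled 48h, Klf1 was at 1.09, 1.23, 0.935 and 0.934 CPM in Mta123KO and at 0.959, 0.974, 1.23 and 1.15 CPM in Control, with a log2 difference of -0.03 (SE 0.19). Hbb-y and Klf1 therefore did not move alike, and in Mta123KO labelled 2iL Hbb-y was at its highest and Klf1 at its lowest of the 4 groups.

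Of the 7 members, 3 passed the filter on low counts labelled 2iL, with 2 called higher and 1 lower, and labelled 48h 2 of 3 were called higher and none lower. Over all genes tested, 13.2% of 21651 were called higher and 7.43% lower labelled 2iL, and 14.1% of 21079 were called higher and 5.93% lower labelled 48h. The members were selected on these contrasts, so nothing is read from their counts, and Hbb-y passed the filter through its Mta123KO libraries alone.

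Levels of different genes are compared as CPM per kilobase of annotated exon. In Mta123KO labelled 2iL, Hbb-y was at 10.6 ± 1.2 (SD, n = 4), ahead of Hba-a2 at 0.342 ± 0.13, Gata1 at 0.337 ± 0.0909, Hba-a1 at 0.307 ± 0.101 and Klf1 at 0.270 ± 0.0977, followed by Hbb-bh1 at 0.108 ± 0.0488 and Hba-x at 0.00578. The 4 genes after Hbb-y were within their spread of each other. In Mta123KO labelled 48h, Hbb-y was at 4.30 ± 1.2, above Klf1 at 0.683 ± 0.0923, and Gata1, Hba-a2 and Hba-a1 lay between 0.197 and 0.256 within their spread. In Control, Klf1 led at 0.592 ± 0.22 labelled 2iL and 0.704 ± 0.0868 labelled 48h, and Hbb-y came after Klf1, Gata1, Hba-a1 and Hba-a2, at 0.0645 ± 0.0435 and 0.0104 ± 0.0208. As a gauge of reads on genes that ES cells are not known to use, 1056 olfactory receptor genes averaged 0.00183 to 0.00391 CPM per kilobase over the Control libraries and 0.00237 to 0.0035 over the Mta123KO libraries.

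The culture contrast itself was not the reason for selecting the genes, and it was tested within each genotype. The Mta123KO values of Hbb-y did enter the selection, so its p-values in Mta123KO are a description and not independent support. In Mta123KO, Hbb-y fell from a mean of 6.68 CPM labelled 2iL to 2.72 labelled 48h, without overlap, a log2 change of -1.30 (SE 0.20, edgeR adjusted p = 0.0027). With the libraries of a line summed the change was -1.29 and did not pass (adjusted p = 0.194), a setting under which 0 of all genes were called. Over all 10 alternatives the adjusted p ran from 3.25e-08 to 0.194. Klf1 rose by a log2 change of 1.34 (SE 0.28, edgeR adjusted p = 0.01) in Mta123KO without overlap, and leaving out replicate 1_1, 1_2 or 2_2 ended that call (edgeR adjusted p = 0.054 to 0.0729, and 0.000218 to 0.267 over all 10 alternatives). Gata1 gave -0.39 (SE 0.25, edgeR adjusted p = 0.308). Hbb-bh1 had 1 count labelled 48h against 12 labelled 2iL, a ratio of 0.0789 (0.00185 to 0.533). Among all 21505 genes tested, 4.84% were called higher and 4.62% lower.

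In Control, neither factor passed between the cultures. Gata1 gave a log2 difference of -0.28 (SE 0.43, edgeR adjusted p = 0.595) and Klf1 0.25 (SE 0.27, edgeR adjusted p = 0.452), beside 10.4% of 21240 genes called higher and 13.2% lower. The alpha-chain genes in Control were lower labelled 48h without overlap, with 4 counts against 24 for Hba-a1 (ratio 0.180, 0.0455 to 0.525) and 4 against 31 for Hba-a2 (0.140, 0.0358 to 0.395). In Mta123KO the same contrast overlapped, with ratios of 0.631 (0.384 to 1.02) and 0.623 (0.369 to 1.04). These had no fitted value, and the difference between the genotypes in this contrast was not tested.

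The genotype differences under the 2 labels were compared in one fit of all 16 libraries, as the labelled 48h difference minus the labelled 2iL one. For Hbb-y this was 1.13 (SE 0.79), for Gata1 -0.09 (SE 0.52) and for Klf1 1.11 (SE 0.39). These are given with no test, since they are built from the contrasts that selected the genes, and the Hbb-y estimate rests on 9 Control counts.

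In the single mutants Hbb-y was at a few reads at most. It had 0 to 6 counts in all 18 libraries, at most 0.196 CPM (1 Mta2_KO library), with group means of 0 in Mta3_del_del, 0.0125 in Mta1_del_del, 0.0235 in Mta3_flox_flox, 0.0461 in Mta2_WT, 0.066 in Mta1_flox_flox and 0.092 CPM in Mta2_KO. Mta2_KO held 9 Hbb-y counts against 5 in Mta2_WT, a ratio of 1.82 (0.549 to 6.93), and Mta1_del_del 1 against 4 (0.207, 0.00421 to 2.09). Mutant and parent overlapped in each pair. The 2 experiments were made and scaled apart, so levels across them are set side by side only, and olfactory receptor genes averaged 0.00819 to 0.0494 CPM per kilobase in these 18 libraries.

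Hbb-bh1 had 0 counts in 3 of the 6 single-mutant groups, 1 each in Mta2_KO and Mta3_del_del and 6 in Mta3_flox_flox, and Hba-x had 0 to 5 per group. Hba-a1 and Hba-a2 were lower in Mta3_del_del than in Mta3_flox_flox, at 0.0736 to 0.129 CPM against 0.138 to 0.423 for Hba-a1 and 0 to 0.158 CPM against 0.276 to 0.413 for Hba-a2. The ratios were 0.328 (0.126 to 0.765; 8 against 22 counts) and 0.196 (0.0582 to 0.527; 5 against 23 counts), with no overlap between the groups. Reads on olfactory receptor genes moved in the same direction, at 40.9 to 173 summed CPM in Mta3_flox_flox and 33.3 to 86.3 in Mta3_del_del, and their part in this difference was not tested. The Mta3_flox_flox library with the least, 40.9, had 0.315 CPM of Hba-a1 and 0.276 of Hba-a2. In the Mta1 and Mta2 pairs the alpha-chain genes overlapped, with ratios of 0.947 to 3.32.

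**Figure D4:**
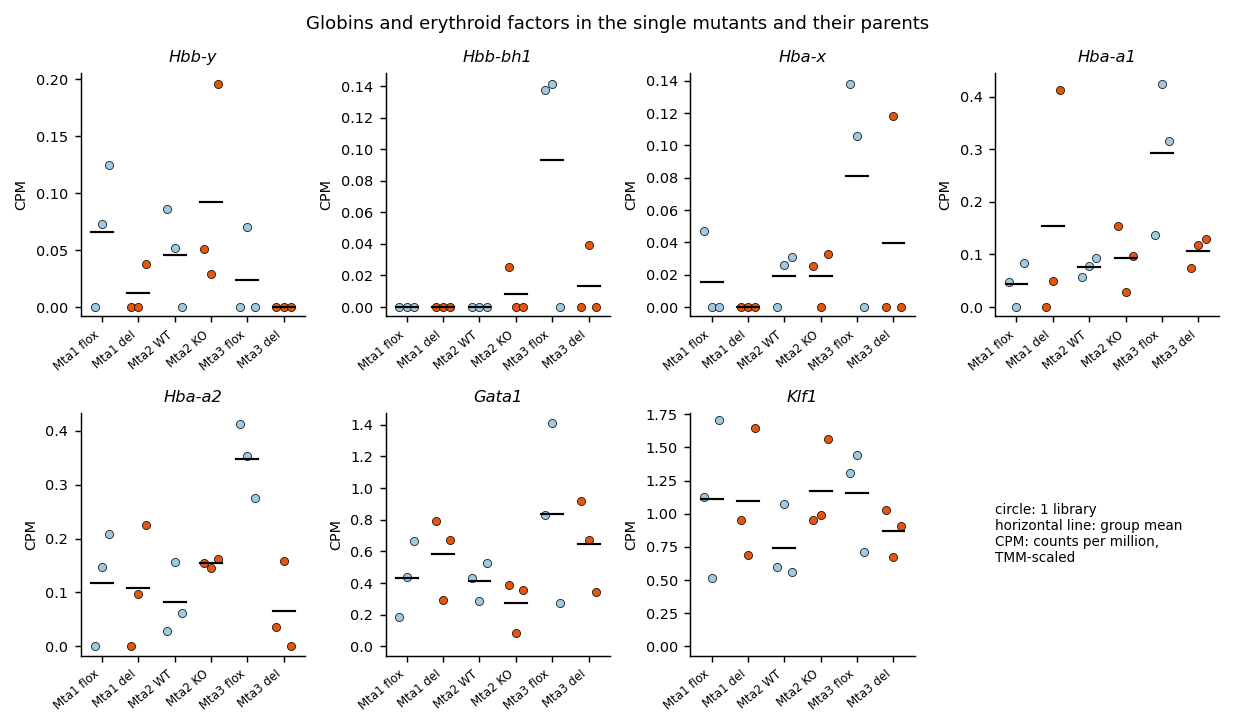
CPM of each member in the 18 libraries of the single-mutant experiment, 3 per group, with the group mean as a horizontal line. Mutants overlap their parents in every panel except Hba-a1 and Hba-a2 in the Mta3 pair, and no Hbb-y value exceeds 0.196 CPM.

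Gata1 and Klf1 were not called in any single mutant. Gata1 ran from 0.0874 to 1.41 CPM and Klf1 from 0.513 to 1.70 CPM over the 18 libraries, with mutant and parent overlapping in each pair. The log2 differences for Gata1 were 0.43 (SE 0.59), -0.55 (SE 0.53) and -0.43 (SE 0.63) in the Mta1, Mta2 and Mta3 pairs, and for Klf1 -0.05 (SE 0.53), 0.64 (SE 0.33) and -0.45 (SE 0.42). Over all genes, edgeR called 0% of 14561 higher and 0% lower in the Mta1 pair, where 50 genes had an unadjusted p under 0.05 and DESeq2 also called 0. It called 5.31% of 15602 higher and 6.04% lower in the Mta2 pair, and 0.812% of 15522 higher and 5.25% lower in the Mta3 pair. For Hbb-y in the Mta3 pair both groups were at or under the floor of 3 counts. In the Mta1 pair the fit did not pair same-numbered libraries, whose deviations correlated at 0.435 to 0.7. Mta1 itself gave -0.97 (SE 0.18) and was not called there. The lack of calls in that pair does not show that Gata1 and Klf1 were unchanged.

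Of the globins outside both clusters, 2 of 3 tested were called higher labelled 2iL and 3 of 3 labelled 48h, beside 13.2% and 14.1% of all genes. Of 10 globin genes and pseudogenes beside the members, 3 passed the filter on low counts. Myoglobin (Mb), the oxygen store of muscle, rose by a log2 fold change of 2.8 (SE 0.29, edgeR adjusted p = 7.96e-05) labelled 2iL, from 0.279 to 0.507 CPM in Control to 1.71 to 3.44 in Mta123KO, and by 1.41 labelled 48h. Neuroglobin (Ngb), found in neurons, rose by 1.87 labelled 2iL and by 3.22 labelled 48h, where it went from 0.16 to 0.21 CPM to 1.14 to 2.40. Cytoglobin (Cygb), a globin of many tissues, rose by 2.05 labelled 48h and gave 0.47 labelled 2iL. The other 7, which include the theta genes Hbq1a and Hbq1b, had at most 23 counts summed over a group.

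Erythroid regulators went in both directions. Of 16 tested labelled 2iL, 3 were called higher and 5 lower, beside 13.2% and 7.43% of all genes, with a median log2 value of 0.26 beside 0.01 over all genes. Labelled 48h, 4 of 14 were called higher and 1 lower, beside 14.1% and 5.93% of all genes, with a median of 0.17. Gata2, the GATA factor of blood stem and progenitor cells, rose the most, from 0.411 to 0.816 CPM to 9.12 to 43.4 CPM labelled 2iL (log2 5.27, SE 0.64, edgeR adjusted p = 0.000188) and by 4.53 labelled 48h. Sox6, a repressor of embryonic globin genes in definitive red cells, rose by 1.69 and 1.94. Zfpm1 (Fog1), the cofactor of Gata1, rose by 1.62 labelled 2iL and gave 0.67 labelled 48h. Gfi1b, a repressor needed in red cell and platelet lineages, rose by 4.43 labelled 48h from 7 counts in Control, and Runx1, needed for definitive blood cells, rose by 2.07 there.

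Factors that fell included Tal1 and Lmo2, which form a complex with Gata1. Tal1, the basic helix-loop-helix factor of early blood, fell by 4.33 on the log2 scale labelled 2iL, from 1.58 to 2.25 CPM to 0.0433 to 0.113 CPM, and its bridging partner Lmo2 fell by 1.81. Myb, needed for definitive blood progenitors, fell by 3.96 labelled 2iL, from 24.4 to 31.9 CPM to 1.06 to 2.96 CPM. Labelled 48h, Lmo2 gave -0.45 and Myb -0.81, neither of them called, and Tal1 did not pass the filter on low counts. Bcl11a, the repressor of fetal and embryonic globin genes, fell by 2.50, from 6.40 to 10.7 CPM to 0.611 to 2.83 CPM, and labelled 48h it was low in both genotypes (0.0263 to 0.164 CPM in Control and 0.156 to 0.531 CPM in Mta123KO). Ikzf1, a lymphoid and erythroid zinc-finger factor, fell by 1.78 labelled 2iL and by 2.58 labelled 48h. The calls of Bcl11a and Ikzf1 labelled 2iL ended with the libraries of a line summed (adjusted p = 0.0564 in both).

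**Figure D5:**
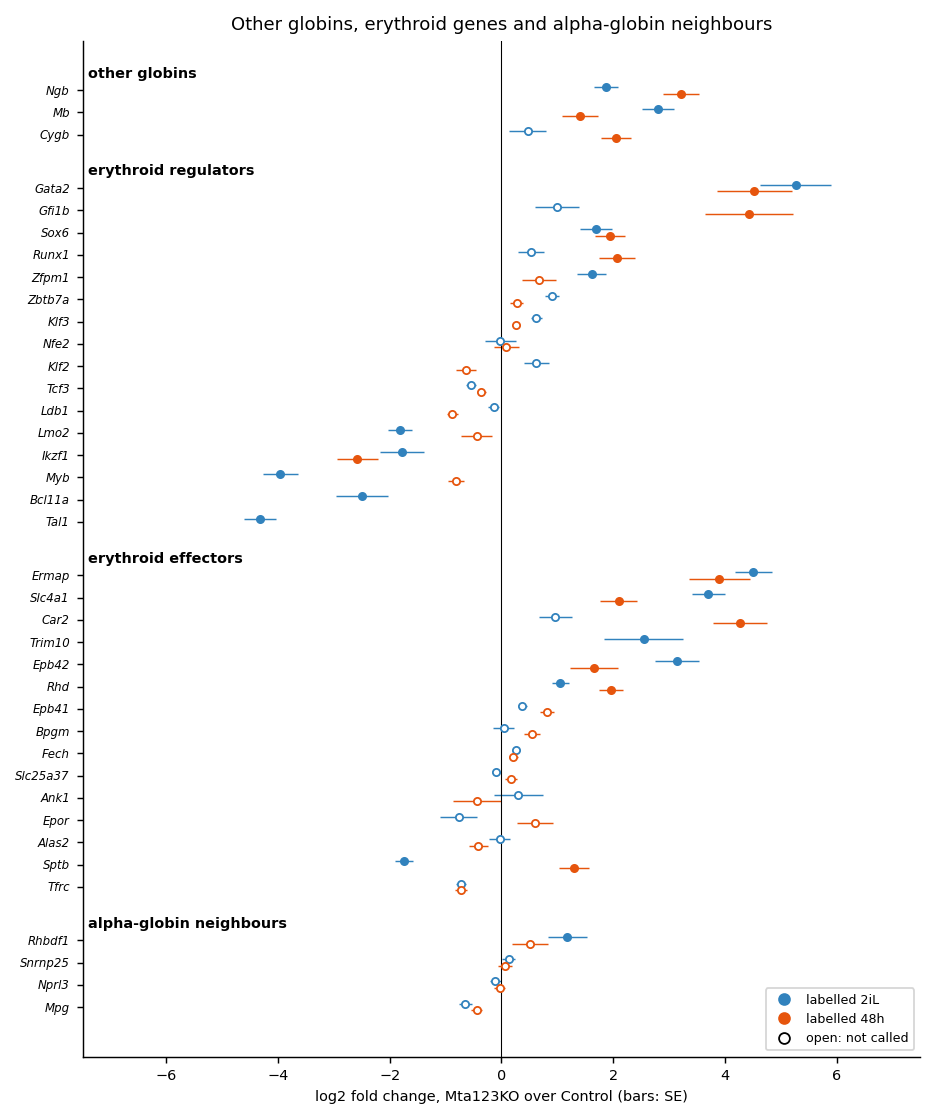
Log2 fold change of Mta123KO over Control, with its SE, for the list genes reported that passed the filter on low counts, labelled 2iL in blue and labelled 48h in orange. Filled points passed both thresholds: Gata2, Ermap and Slc4a1 lie to the right under both labels, while Tal1, Myb and Bcl11a lie to the left labelled 2iL.

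Of the erythroid effectors (receptors, haem synthesis, membrane and carbonic anhydrase genes), 5 of 16 tested were called higher and 2 lower labelled 2iL, beside 13.2% and 7.43% of all genes. Labelled 48h, 6 of 15 were called higher and none lower, beside 14.1% and 5.93%. Their medians were 0.28 and 0.81. The membrane genes Slc4a1 (band 3 anion exchanger) and Epb42 (protein 4.2) rose by 3.70 and 3.14 labelled 2iL and by 2.1 and 1.66 labelled 48h. Ermap, an erythroid membrane protein, rose by 4.5 and 3.9, and Rhd, a Rh blood group protein, by 1.06 and 1.95. Trim10 rose by 2.55 labelled 2iL. Car2, a carbonic anhydrase of red cells and many other cells, rose by 4.27 labelled 48h, from 4.49 to 5.02 CPM to 38.5 to 145 CPM. Sptb, a spectrin of the red cell membrane skeleton, fell by 1.74 labelled 2iL, whereas it rose by 1.29 labelled 48h. The haem synthesis genes Alas2 and Fech did not pass both thresholds under either label. Some of these calls ended when libraries were left out or summed: Rhd labelled 2iL without replicate 2_2 (0.91), Trim10 without replicate 2_1 (adjusted p = 0.0756), and Sptb and Epb42 labelled 48h with the libraries of a line summed (adjusted p = 0.0736 and 0.0656).

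In all 4 lists together, 11 of 39 genes tested were called higher and 7 lower labelled 2iL, beside 13.2% and 7.43% of all genes. Labelled 48h they were 13 of 36 higher and 1 lower, beside 14.1% and 5.93%. In the single mutants the counts were 0 and 0 of 35 in the Mta1 pair, 2 higher (Zfpm1 1.18, Slc4a1 1.4) and 1 lower (Sox6 -1.10) of 35 in the Mta2 pair, and 1 higher and 2 lower (Zfpm1 -1.34, Sptb -1.13) of 38 in the Mta3 pair. In the Mta2 pair the Slc4a1 call ended without replicate 1 or 2 and the Sox6 call without replicate 3. All 3 calls of the Mta3 pair ended without replicate 1 or without replicate 3, which left 0 calls in these lists. Between the cultures, 7 of 36 rose and 12 fell in Control, beside 10.4% and 13.2% of all genes. In Mta123KO 3 of 37 rose and 5 fell, beside 4.84% and 4.62%, and 0 of these calls were left with the libraries of a line summed.

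The few neighbours of the globin clusters that could be tested did not share the Hbb-y pattern. Within 150000 bases of the beta-globin genes the annotation listed 28 other genes with a row of counts, of which 24 were olfactory receptor genes. The only one tested, the processed pseudogene Dnajc19-ps, gave log2 values of -0.19 and -0.29 with no call. The rest had too few counts to show a pattern, the most being Olfr635 with 11 in Mta123KO against 3 in Control labelled 2iL. Around Hbb-y the question is therefore left without an answer. Within the same distance of the alpha-globin genes there were 7, of which 5 were tested and 1 was called under each label, Rhbdf1 labelled 2iL and Sh3pxd2b (1.84) labelled 48h. Rhbdf1 rose by 1.18 labelled 2iL and gave 0.51 labelled 48h, and its call ended without replicate 1_1 or 1_2, with the replicate block and with lines summed (adjusted p at most 0.157). Nprl3, whose introns hold the main alpha-globin enhancers, gave -0.11 and -0.03, Mpg -0.65 and -0.44 and Snrnp25 0.13 and 0.06.

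Markers of other cell types moved with genotype too, and their part in the globin values was not tested. The shares of all genes called were 13.2% higher and 7.43% lower labelled 2iL, and 14.1% and 5.93% labelled 48h. Of 12 blood and endothelial markers, 5 of 10 tested were called higher and 0 lower labelled 2iL (Cdh5 3.72, Kdr 2.30, Spi1 2.17, Tek 1.90 and Kit 1.13), and 3 of 9 higher (Spi1 2.36, Cd34 1.99, Tek 1.23) and 1 lower (Kit -1.12) labelled 48h. Their summed level was 124 to 194 CPM in Mta123KO against 84.0 to 104 in Control labelled 2iL, and 171 to 289 against 313 to 445 labelled 48h. Kit, which ES cells also express, made up 22.8 to 33.4 CPM of the Control sum labelled 2iL and 210.4 to 324 CPM labelled 48h. Of 4 trophoblast markers, all 4 were called higher labelled 2iL (Gata3 5.61, Elf5 3.33, Cdx2 2.06, Eomes 1.86) and 2 labelled 48h (Gata3 4.22, Elf5 2.28), with sums of 12.9 to 29.4 CPM against 3.31 to 4.05 labelled 2iL and 13.1 to 17.3 against 8.08 to 11.4 labelled 48h. Of 6 endoderm markers, Gata6 (-2.68) and Gata4 (-1.25) were lower and Afp (2.48) higher labelled 2iL, and Gata4 (-1.98) was lower labelled 48h, with sums of 1.66 to 3.44 CPM in Mta123KO and 2.17 to 12.4 CPM in Control. The Cdx2 call rests on line 1 (3.33 to 3.92 CPM), since line 2 (0.304 to 0.587) lay within the Control range (0.279 to 0.737). The Cd34 call labelled 48h rests on line 2 (5.03 to 5.59 CPM), since line 1 (1.01 to 1.11) lay within the Control range (0.604 to 1.11). Labelled 2iL, Gata6 in Mta123KO line 1 (0.6787 to 0.747 CPM) lay within the Control range. Control was at 0.6371 to 1.498 CPM in line 1 and 5.344 to 7.057 in line 2. Gata4 in Mta123KO line 1 (1.404 to 1.972 CPM) overlapped Control (1.911 to 3.639). Mta123KO line 2 lay below every Control library for Gata6 (0.3666 to 0.4552 CPM) and Gata4 (0.4986 to 0.5376). No marker on these lists was at 0 in every library of a group of this experiment. In bulk RNA, a few cells with much Hbb-y and many cells with little cannot be told apart.

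The genes whose log2 CPM followed the members most closely over the 16 libraries were looked up among 22970 genes, as a description, since all share the same 4 groups. For Hbb-y these were Wnk3 (Pearson r = 0.994), A230072E10Rik (0.986) and Sohlh2 (0.985). For Hba-a1, with at most 17 counts, they were Nt5c2 (0.93), Gm20425 (0.93) and Syt5 (0.925). For Klf1 they were 1700030C10Rik (0.895), Irf2bpl (0.89) and Adam19 (0.886).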

How the data were processed

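The authors deposited read counts per gene for each library, made, per the labels, with Trim Galore, TopHat2 and featureCounts on GRCm38/mm10; strand setting and multi-mapping were not given in the sources used here. The single-mutant set has 18 libraries and the triple-mutant set 16, the latter with 92 spike-ins left out of library sizes. GENCODE vM21 gave names and positions for 48349 of 48709 and 21852 of 22018 genes. CPM were TMM-scaled within each set (edgeR 4.0.16, R 4.3.3). Counts were tested with filterByExpr and the quasi-likelihood F test on the compared groups only, with Benjamini-Hochberg adjustment over all genes tested, calling an adjusted p under 0.05 with an absolute log2 fold change above 1. Log2 CPM used a prior count of 2. The 95% intervals (exact Clopper-Pearson for ratios, Wilson for shares) and the floor of 3 counts cover counting error only. The procedure was tested on simulated counts. Python 3.11.15, pandas 2.3.3 and scipy 1.17.1 were used for summaries.

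Members and lists were chosen with earlier results of these data known. The text names all 7 members, at most 6 genes past both thresholds per list and direction in the comparisons of Mta123KO with Control, the Mta genes in their knockouts, and the 3 genes most like the member of highest CPM of each kind. Hbb-bh0, Dnajc19-ps, Olfr635, Sh3pxd2b and the other markers and values named outside that rule were chosen after their values were seen. One item of the lists is counted but not reported here. No 2 libraries of a group agreed within counting noise. Same-numbered libraries pair in the culture comparisons, where the number names the line (correlation of deviations 0.272 to 0.586), and in the Mta1 pair (0.435 to 0.7), but not in the others. Alternatives were DESeq2 1.42.0, RLE normalization, no filter, a replicate block, each replicate left out, summed lines and spike-in scaling.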

Additional observations from a re-analysis of the deposited data

Results flagged for a closer look

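Single reads set 3 member groups apart among the 24 groups of 4 libraries examined for a library far from the others. Where the others have 0 counts, 1 read is enough for this, so nothing is read from it. Hbb-y in Control labelled 48h (0.0263 CPM in 1 library, 0 in the other three), Hbb-bh1 in Mta123KO labelled 48h (0.0223 CPM) and Hba-x in Mta123KO labelled 2iL (0.0217 CPM) each rest on 1 count.

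The difference between Mta123KO and Control itself differed between the labelled cultures for several list genes, by the interaction term of the edgeR fit. It is given here as the log2 difference labelled 48h minus that labelled 2iL. Of 39 list genes tested, 12 had a higher and 3 a lower interaction, of which 1 is counted but not reported here. Over all genes, 7.66% of 22973 had a higher and 5.37% a lower interaction. The interaction was positive for Bcl11a (4.73), Gfi1b (3.44), Car2 (3.31), Myb (3.16), Sptb (3.04), Tal1 (2.75), Cygb (1.59), Runx1 (1.55), Epor (1.38), Lmo2 (1.37) and Ngb (1.36). It was negative for Slc4a1 (-1.6), Mb (-1.38) and Klf2 (-1.25). Those of Bcl11a, Myb, Sptb, Car2, Tal1 and Lmo2 passed under all 8 alternatives, with adjusted p at most 0.0495. Labelled 48h, Bcl11a in Control (0.0263 to 0.164 CPM) and Tal1 in both genotypes (0.0219 to 0.313 CPM) rest on few counts. That of Epor passed under 1 of 8 and those of Mb, Cygb and Ngb under 4 of 8. Their causes were not tested.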

How the results depend on the processing

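Of the counts of list genes called, 104 values under the alternatives stayed within 1.5 times the count reported and 18 did not. Labelled 48h, 2 list genes were lower in place of 1 with DESeq2, without the filter and with spike-in scaling. Between the cultures in Mta123KO, summing the libraries of a line left 0 list genes higher and 0 lower, and 0 of all genes, in place of 3 and 5, and leaving out 1 replicate gave 1 to 2 lower. The same summing gave 1878 higher and 956 lower of all genes labelled 2iL and 823 lower labelled 48h, and without replicate 1_2 the cultures in Mta123KO gave 644 lower. In the Mta2 pair, the replicate block gave 2 list genes lower in place of 1, and leaving out 1 replicate gave 1 to 3 higher and 0 to 1 lower. In the Mta3 pair that gave 0 to 1 higher and 0 to 4 lower, and of all genes 0 to 246 higher and as few as 1 (without replicate 3) or 2 (without replicate 1) lower, while no filter gave 191 higher. The Gata1 interaction, -0.09, ran from -0.307 to 0.122 with a replicate left out and turned sign without replicate 2_1 (0.02) and 2_2 (0.122). In the paired comparisons the block ended no call of a member; Hbb-y between the cultures was -1.32 with it.

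Spike-in scaling shifted the median log2 value of all genes by -0.18 for Mta123KO against Control labelled 48h, by 0.18 between the cultures in Control and by -0.22 in the interaction, and DESeq2 shifted it by -0.19 in the Mta3 pair. The members' directions were the same under these, with Klf1 labelled 48h at -0.21 with spike-in scaling. Depth limits Hbb-bh1, Hba-x, Hba-a1 and Hba-a2, which had at most 17 counts in any library of the triple-mutant experiment. The causes of these differences were not tested.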

Other observations

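The 2 Mta123KO lines had unlike levels of several blood-related genes. Gata2 averaged 39.7 CPM in line 1 and 9.12 in line 2 labelled 2iL, and 86.6 and 15.4 labelled 48h. Car2, a carbonic anhydrase, averaged 115 and 51.1 CPM labelled 2iL and 139 and 38.9 labelled 48h. Gata3, a trophoblast and T-cell factor, averaged 8.50 and 2.85 CPM labelled 2iL. Cd34, a marker of blood progenitors and endothelium, went the other way, at 1.34 CPM in line 1 and 5.66 in line 2 labelled 2iL. Each mean is over 2 libraries, these genes were chosen after their values were seen, and the differences between lines were not tested.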
